A study of Homo sapiens with 26 samples.

Results

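Genes for granins and neuropeptides, the cargo of dense-core vesicles, were followed in KELLY, an established MYCN-amplified human neuroblastoma line, in culture and as xenografts. The 10 genes, of 26485 in each count table, were taken by symbol: the granins CHGA, CHGB, SCG2, SCG3 and SCG5 and the peptide precursors NPY, VIP, GAL, SST and CRH. CRH was selected on its culture counts, which rose with both hairpins, so its culture values are given as a description without a test, and 9 genes were tested there. CRH was tested in the xenografts, which did not enter that choice. The other genes were chosen with earlier results of these data known.

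The culture set held 18 libraries of 3 KELLY lines, each transduced with a doxycycline-inducible FH1UTG lentiviral vector. The vector was empty (EV line, F1HUTG in the labels) or carried a hairpin against RUNX1T1, a transcriptional co-repressor (sh4 and shAMB lines). Each line received DMSO or doxycycline for 72 h, with 3 replicates per group. The tables head these columns Neg and Pos, which were read as DMSO and doxycycline, and every direction in culture rests on that reading. The xenograft set held 8 libraries of KELLY xenografts, 4 labelled as wild type on control food and 4 as RUNX1T1 KO on doxycycline food. The sample titles do not say whether each library is a separate tumour, and tumour below stands for a library. The methods of the study describe subcutaneous growth in female NOD SCID gamma mice and a doxycycline-inducible hairpin, not a deletion, so that the second group is called here by its label only. The paper describes the hairpin of its KELLY xenografts as the one based on an Ambion sequence. For its RNA sequencing of KELLY cells it names shRNA1 both in culture and in vivo, and shRNA2 in culture. The tumours thus share a hairpin with a culture line. By its name shAMB may be that hairpin, which the sample titles do not state. No xenograft of empty-vector cells on doxycycline food was analysed here, and the effects of the drug and of the hairpin in tumours cannot be told apart. Doxycycline was also what the EV line received, and that line is the background for the culture comparisons.

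Granins are acidic proteins that help to form dense-core vesicles in the Golgi and are stored and released with the peptides those vesicles carry. Peptide precursors are cut by prohormone convertases inside the vesicle, and the products act on receptors coupled to G proteins. Tumours of the sympathetic lineage, neuroblastoma among them, are known to make chromogranin A and several of these peptides. SST and VIP are textbook targets of cyclic AMP signalling through a cyclic AMP response element (CRE) just before the gene.

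The stretches before 3 of the genes are shown because the letters of this element stand in or near them and because the RNA of these genes moved differently across the lines. RefSeq promoters (GRCh38.p14, 250 bases before to 50 after the start) were available here for 6 of the 10 genes, CHGA, SCG3, SCG5, NPY, VIP and SST. The last 120 bases before the start of the RefSeq promoter entry are printed 5′ to 3′ on the strand of the gene, at chr14:92923030-92923149 (plus strand) for CHGA, chr3:187670395-187670514 (minus strand) for SST and chr6:152750677-152750796 (plus strand) for VIP. Capitals mark the whole element TGACGTCA in CHGA and SST, and its core TGACG on either strand in VIP. For CHGA that start, 92923150, is also the first base of the gene in GENCODE v44, whereas the whole RefSeq gene span used for positions begins further upstream, so that the CHGA stretch lies inside that span.
CHGA: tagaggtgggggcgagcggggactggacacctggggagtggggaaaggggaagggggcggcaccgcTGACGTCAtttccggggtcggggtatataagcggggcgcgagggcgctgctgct
SST: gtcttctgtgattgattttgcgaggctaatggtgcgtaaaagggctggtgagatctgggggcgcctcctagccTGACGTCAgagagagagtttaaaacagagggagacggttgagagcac
VIP: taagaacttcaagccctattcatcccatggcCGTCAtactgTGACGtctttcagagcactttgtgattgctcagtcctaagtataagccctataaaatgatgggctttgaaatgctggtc

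The whole element, searched on both strands, was present in 2 of the 6 promoters, CHGA with its first base at -54 and SST at -47, and in 1.85% of 35116 RefSeq promoters of the same length. Its core TGACG, which lies inside the whole element, was present in 5 of the 6 and in 24.55% of all promoters. In VIP the core occurred at -89 and at -79. Of the other motifs searched on both strands, CACGTG (7.26% of promoters), CATCTG (14.70%) and TAATTA (4.84%) were found in 0 of the 6, AGATAA (10.33%) in SCG5 and VIP, and TATAAA (11.53%) in VIP and SST. These matches describe letters in a window and not binding.

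Libraries held between 35115915 and 54736733 counts in culture and between 47346063 and 62378060 in the xenografts. All 9 markers of sympathetic neuroblasts (PHOX2A, GATA2, GATA3, HAND2, ISL1, TH, DBH, DDC and STMN2) were measured in every group. Fold changes are on the log2 scale of the edgeR quasi-likelihood fit with the standard error (SE), CPM are counts scaled to library size with TMM factors, means carry the SD, and a gene with an adjusted p under 0.05 over all genes tested is called changed. RUNX1T1, the target, differed between doxycycline and DMSO by -0.11 (adjusted p = 0.117) in the sh4 line, 0.06 (adjusted p = 0.378) in the shAMB line and -0.16 (adjusted p = 0.672) in the EV line, and between the xenograft groups by -0.23 (adjusted p = 0.229). None of these passed the edgeR threshold. The shAMB value was 0.16 with library totals only (adjusted p = 0.0142) and 0.23 with limma on TPM (adjusted p = 0.00555). Both values were higher and passed the threshold. The sh4 value was -0.16 (adjusted p = 0.0434) without sh4 doxycycline replicate 2. The RNA of the target therefore does not check the labels. The paper reports that RUNX1T1 protein fell in KELLY cells given doxycycline with each of its hairpins. It also reports that staining for the protein was lost in KELLY tumours after knockdown. Protein was not measured in the libraries used here.

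Levels between genes were compared as CPM per kilobase of the deposited gene length. CHGA was first in all 8 groups, from 538.5 ± 87.4 in the sh4 line with doxycycline to 891 ± 165 in control xenografts, and CHGB second in all of them. In the EV line with DMSO the order was CHGA (732 ± 81.1), CHGB (83.9 ± 2.45), SCG3 (64.4 ± 3.89), SST (59.2 ± 4.72), GAL (31.3 ± 5.04), SCG2 (24.5 ± 1.25), SCG5 (20.7 ± 0.563), NPY (9.00 ± 0.284), VIP (5.04 ± 0.322) and CRH (0.786 ± 0.0530) CPM per kilobase. In that order SCG3 and SST did not differ beyond their SDs. In the shAMB line with doxycycline GAL stood next after CHGB (103.0 ± 9.88) and SST was below SCG5 (15.9 ± 0.859). In control xenografts CRH (12.2 ± 6.63) lay within the SD of SCG2 (10.9 ± 1.76).

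**Figure D1:**
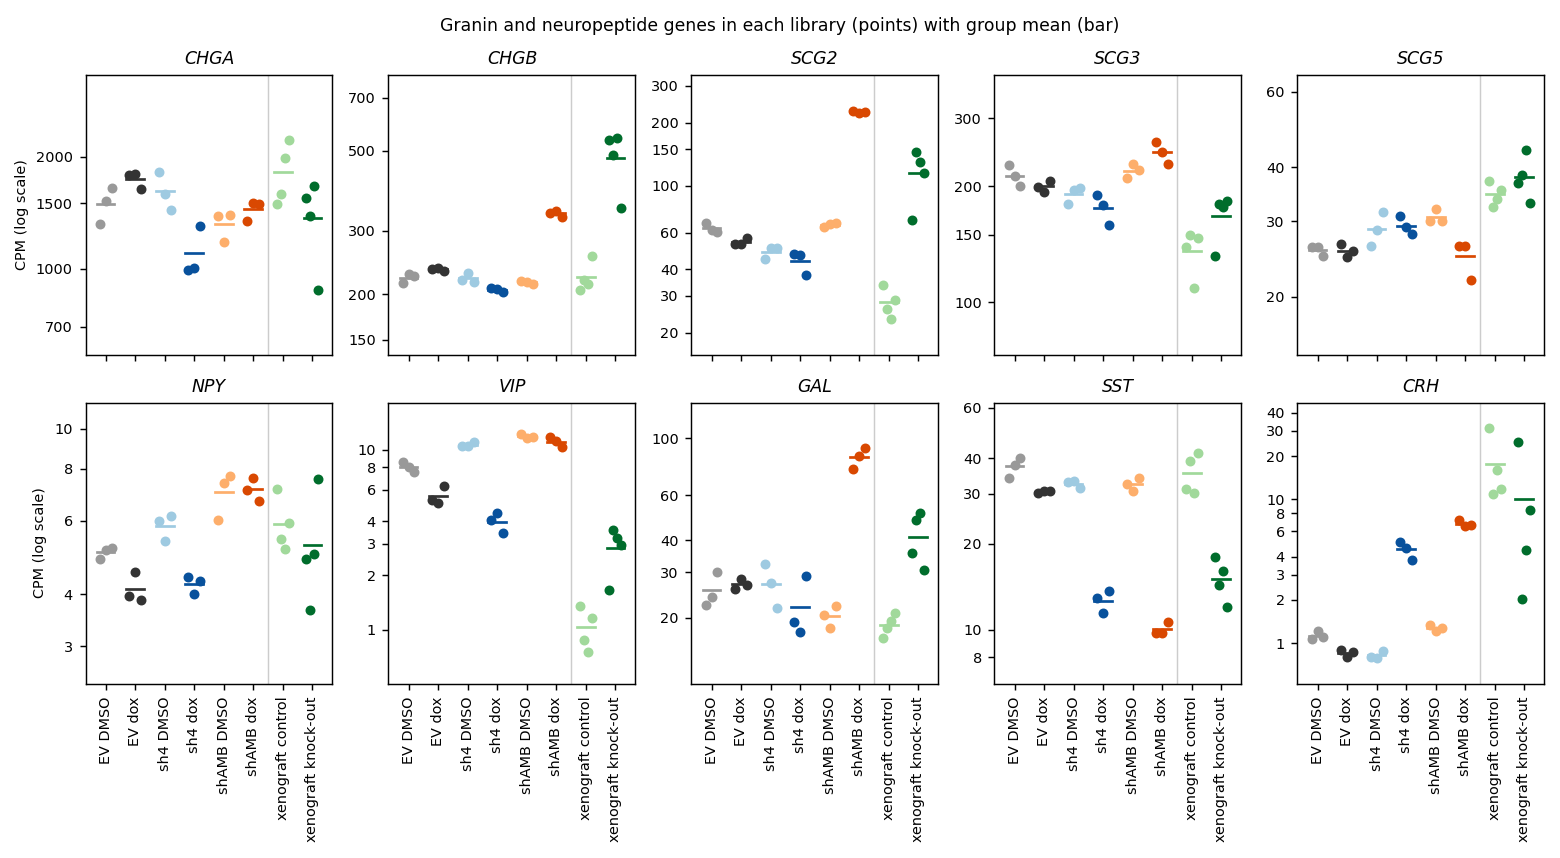
CPM on a log scale for each of the 10 genes, with 1 point per library, a bar at the group mean and a grey line between the culture and xenograft tables. SST sits lower in both hairpin lines with doxycycline and in the xenografts labelled knock-out, between 9.70 and 18.01 CPM, while SCG2 and GAL sit higher in the shAMB line with doxycycline and in those xenografts.

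Doxycycline without a hairpin changed 0 of the 9 tested genes in the EV line by edgeR, where 0.0939% of 14905 genes were called. At an unadjusted p under 0.05 there were 5 of 9 (CHGB, SCG2, NPY, VIP and SST), and DESeq2 called 2 (VIP and SST). The share of all genes is not given here for either, so these counts cannot be set beside 0.0939%. VIP was 8.49, 8.01 and 7.47 CPM with DMSO and 5.23, 5.03 and 6.26 with doxycycline. These libraries did not overlap, and the fitted difference was -0.54 (SE 0.10, adjusted p = 0.0684). Without replicate 3 of the doxycycline libraries it was -0.64 and passed (adjusted p = 0.0464). SST differed by -0.29 (SE 0.07, adjusted p = 0.362). The median over the 9 genes was -0.09, against 0.01 over all genes tested.

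In the sh4 line 5 of the 9 tested genes changed with doxycycline, all downwards, where 40.9% of all genes were called. They were CHGA and CHGB among the granins and NPY, VIP and SST among the peptides, and the median over the 9 genes was -0.31, against -0.00462 over all genes tested. SCG2, SCG3, SCG5 and GAL did not pass the threshold. With TPM, which moved the median of all genes up by 0.12, the split was 1 up and 4 down. In the shAMB line 5 of 9 changed, against 66.0% of all genes. CHGB, SCG2 and GAL rose there and SCG5 and SST fell, with a median of 0.13 over the 9 genes and 0.10 over all genes tested. With TPM, where that last median was 0.21, the split was 6 up and 1 down. For neither line is the share of all genes called with TPM given here. SST fell with both hairpins, and it was the only gene of the 9 called in the same direction in both by edgeR.

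**Figure D2:**
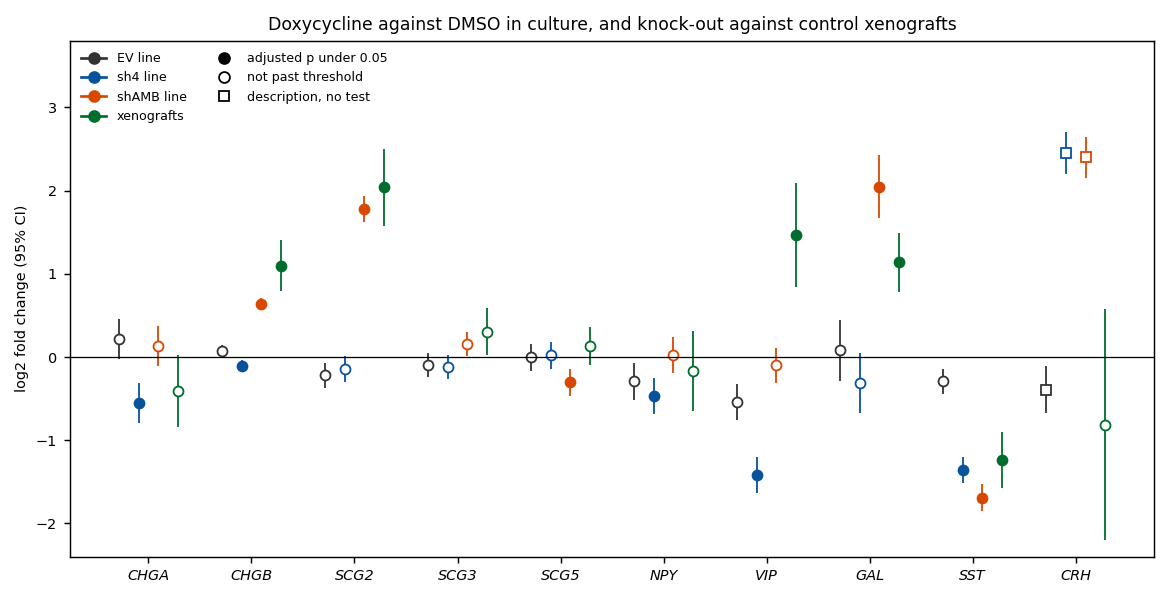
Log2 fold changes with 95% confidence intervals for doxycycline against DMSO in the EV, sh4 and shAMB lines and for xenografts labelled knock-out against control. Filled points passed an adjusted p of 0.05, open circles did not, and squares are CRH in culture, which was not tested. The 3 SST points of the sh4, shAMB and xenograft comparisons lie between -1.69 and -1.24.

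SST encodes somatostatin, a peptide that inhibits hormone release and cell growth in many tissues. The gene lies at chr3:187668912-187670394 on the minus strand (GRCh38). SST was 32.9, 33.1 and 31.3 CPM in the sh4 line with DMSO and 12.9, 11.4 and 13.6 with doxycycline. In the shAMB line it was 32.5, 30.7 and 34.0 with DMSO and 9.74, 9.70 and 10.7 with doxycycline. Every induced library lay below every library with DMSO in both lines. SST changed by -1.36 (SE 0.07, adjusted p = 1.06e-09) with sh4 and by -1.69 (SE 0.08, adjusted p = 3.72e-11) with shAMB. Against the change in the EV line the drop was larger by -1.07 (adjusted p = 1.52e-06) and -1.40 (adjusted p = 3.71e-08) in turn.

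SST was also lower in the tumours. Control xenografts held 31.1, 39.2, 30.2 and 41.8 CPM and those labelled knock-out 18.01, 14.3, 16.1 and 12.02. The ranges did not overlap, and the difference was -1.24 (SE 0.15, adjusted p = 0.000133).

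SCG2 encodes secretogranin II, the precursor of the peptide secretoneurin, at chr2:223596940-223602361 on the minus strand. It was 63.8, 66.1 and 66.3 CPM in the shAMB line with DMSO and 226, 223 and 225 CPM with doxycycline, a rise of 1.78 (SE 0.07, adjusted p = 1.48e-11). The sh4 line did not show it, with 45.1, 50.6 and 50.4 CPM with DMSO and 47.4, 47.0 and 37.8 with doxycycline, a difference of -0.14 (adjusted p = 0.124). In control xenografts SCG2 was 33.9, 25.9, 23.4 and 28.7 CPM, and in those labelled knock-out 68.9, 146, 130 and 115 CPM. All of the latter were above all of the former, and the rise was 2.04 (SE 0.21, adjusted p = 4.79e-05).

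GAL encodes galanin, a peptide of sympathetic and sensory neurons, at chr11:68684544-68691175. With shAMB it went from 20.6, 18.3 and 22.3 CPM to 75.6, 85.5 and 91.6 CPM, a rise of 2.05 (SE 0.18, adjusted p = 6.48e-08). The sh4 libraries overlapped, at 32.3, 27.4 and 21.9 CPM with DMSO and 19.3, 17.6 and 29.0 with doxycycline. The sh4 difference of -0.31 did not pass (adjusted p = 0.159), but without replicate 3 of the doxycycline libraries it was -0.56 and passed (adjusted p = 0.00467). Without doxycycline replicate 2 it was -0.17. Control xenografts held 16.7, 18.2, 19.5 and 20.9 CPM of GAL and those labelled knock-out 35.6, 48.2, 51.0 and 30.7. GAL rose by 1.14 between these groups (SE 0.16, adjusted p = 0.000322), without overlap.

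CHGB encodes chromogranin B, a granin with its own role in vesicle sorting, at chr20:5911510-5925353. It was 218, 217 and 214 CPM in the shAMB line with DMSO and 337, 341 and 328 with doxycycline, a rise of 0.63 (SE 0.03, adjusted p = 2.56e-10). In the sh4 line it was 219, 229 and 217 CPM with DMSO and 208, 207 and 203 with doxycycline, a change of -0.10 (SE 0.03, adjusted p = 0.0194). That small drop lost its call without replicate 2 of the DMSO libraries (-0.08, adjusted p = 0.100) and turned to 0.07 when TPM were used. The call was also lost with library totals only (-0.05, adjusted p = 0.159) and with only the lines compared (-0.10, adjusted p = 0.167). In the xenografts CHGB was 205, 219, 213 and 255 CPM in controls and 536, 485, 542 and 348 in the group labelled knock-out. It rose by 1.10 there (SE 0.14, adjusted p = 0.000171), again without overlap.

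CHGA encodes chromogranin A, the clinical marker of neuroendocrine tumours and the precursor of catestatin and pancreastatin, at chr14:92922664-92935285. It was 1818, 1591 and 1436 CPM in the sh4 line with DMSO and 992, 1004 and 1307 with doxycycline. The highest induced library lay below the lowest library with DMSO, and CHGA fell by 0.55 (SE 0.11, adjusted p = 0.00102). In the shAMB line the groups overlapped, at 1390, 1177 and 1392 CPM against 1342, 1500 and 1493, a difference of 0.13 (adjusted p = 0.320). With limma on TPM that difference was 0.31 and passed (adjusted p = 0.0213). In the xenografts they overlapped too, with 1493, 1592, 1980 and 2217 CPM in controls and 1550, 1389, 1665 and 878 in the other group. That difference was -0.41 (SE 0.20, adjusted p = 0.122).

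VIP encodes vasoactive intestinal peptide, which raises cyclic AMP through its receptors, at chr6:152750797-152759760. It was 10.5, 10.4 and 11.1 CPM in the sh4 line with DMSO and 4.06, 4.44 and 3.44 with doxycycline. These groups stood well apart, and VIP fell by 1.42 (SE 0.10, adjusted p = 2.34e-08). The shAMB libraries were 12.2, 11.7 and 11.8 CPM with DMSO and 11.7, 11.2 and 10.3 with doxycycline, a difference of -0.10 (adjusted p = 0.372). In the xenografts, normalised apart from the culture set, VIP was much lower and rested on few reads. It was 1.34, 0.881, 0.752 and 1.15 CPM in controls (63, 39, 42 and 69 counts). The group labelled knock-out held 1.66, 3.59, 3.21 and 2.96 CPM (95, 204, 206 and 154 counts). VIP rose by 1.46 between these groups (SE 0.28, adjusted p = 0.00196), the opposite direction from the sh4 line. On the log2(TPM + 1) scale the rise was 0.56. LINC02840, on the other strand, overlaps 20.6% of the VIP exon sequence, and whether counting used the strand is not given in the sources used here.

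NPY encodes neuropeptide Y, the peptide co-released with noradrenaline from sympathetic neurons, at chr7:24284190-24291862. It was 5.997, 5.37 and 6.17 CPM in the sh4 line with DMSO and 4.39, 4.01 and 4.30 with doxycycline, and it fell by 0.47 (SE 0.10, adjusted p = 0.00178). The EV difference of -0.29 did not pass (adjusted p = 0.672), and the sh4 and EV effects did not differ past the threshold (-0.18, 95% interval -0.49 to 0.14, adjusted p = 0.366). NPY differed by 0.02 in the shAMB line (adjusted p = 0.840) and by -0.17 in the xenografts (adjusted p = 0.576). With limma on TPM the shAMB value was 0.21 and passed (adjusted p = 0.0260).

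The remaining granins were SCG3 and SCG5. SCG3, a granin that ties chromogranin A to vesicle membranes, lies at chr15:51681503-51721026 and ranged from 159 to 260 CPM over all 18 culture libraries. It differed by -0.12 with sh4 (adjusted p = 0.172) and by 0.16 with shAMB (adjusted p = 0.0521), the latter passing without replicate 3 of the doxycycline libraries (0.20, adjusted p = 0.0253), with library totals only (0.26, adjusted p = 0.00124) and with limma on TPM (0.33, adjusted p = 0.000555). In the xenografts it differed by 0.30 (adjusted p = 0.0837), and without replicate 1 of the group labelled knock-out by 0.40, which passed (adjusted p = 0.0131). SCG5 encodes 7B2, the chaperone of the convertase PCSK2, at chr15:32641710-32697092. It went from 30.04, 31.9 and 30.03 CPM to 26.3, 26.3 and 21.9 CPM with shAMB and fell by 0.30 (SE 0.08, adjusted p = 0.00250). With limma on TPM the value was -0.13 and the call was lost (adjusted p = 0.114). In the sh4 line it differed by 0.02 (adjusted p = 0.834) and in the xenografts by 0.13 (adjusted p = 0.334). The sh4 value was 0.20 with limma on TPM and passed (adjusted p = 0.0268). The readthrough gene ARHGAP11A-SCG5 shares 51.4% of the SCG5 exon sequence on the same strand, so that the SCG5 counts are uncertain.

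CRH encodes corticotropin-releasing hormone, the hypothalamic peptide that drives the stress axis, at chr8:66176376-66178464 on the minus strand. The values that chose it were 0.807, 0.787 and 0.881 CPM in the sh4 line with DMSO and 5.08, 4.61 and 3.804 with doxycycline, a ratio of 5.45. In the shAMB line they were 1.33, 1.22 and 1.28 CPM with DMSO and 7.14, 6.52 and 6.65 with doxycycline, a ratio of 5.29. The EV line gave 1.07, 1.21 and 1.09 CPM with DMSO and 0.901, 0.805 and 0.870 with doxycycline. These rest on few reads, from 31 to 54 counts in every uninduced or EV library, 155 to 237 in the sh4 line with doxycycline and 288 to 373 in the shAMB line with doxycycline.

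The xenografts, which did not choose it, gave another picture of CRH. Control tumours held 31.4, 10.9, 16.0 and 11.8 CPM (1471, 484, 895 and 703 counts), and those labelled knock-out 25.1, 2.04, 4.42 and 8.40 CPM (1439, 116, 284 and 437 counts). The 2 sets were normalised apart, and the control tumours lay at 10.9 CPM or more where the uninduced culture libraries lay between 0.787 and 1.33. Replicate 1 of the group labelled knock-out lay among the controls and its other 3 libraries below all of them. The difference of -0.81 (SE 0.63, adjusted p = 0.332) did not pass, and its 95% interval ran from -2.20 to 0.57. Without that library it was -1.83 and passed (adjusted p = 0.0101), and without control replicate 1 it was -0.42. It also passed with limma on TPM (-0.92, adjusted p = 0.0473) and with the replicate block (-1.25, adjusted p = 0.0355). CRH thus stood higher with both hairpins in culture, while its mean in the tumours labelled knock-out was below that of the controls without passing the edgeR test over all 8 libraries.

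Genes with the pattern most like CRH were sought by the root mean square difference of the log2 fold changes in the EV, sh4, shAMB and xenograft comparisons, among 12490 genes. The nearest were VWF (0.678, with differences of 2.42 in sh4 and 3.09 in shAMB), EDN3 (0.775, 1.37 and 1.87) and LIN28A (0.847, 1.59 and 1.15). In the xenografts VWF, EDN3 and LIN28A stood at 0.34, 0.14 and -0.51 in turn, where CRH stood at -0.81. For the other members the nearest gene lay at 0.0147 (SCG5) to 0.446 (VIP), beside 0.678 for CRH. Within the 10 genes, SCG2 and GAL were nearest to each other (0.502), as were SCG3 and SCG5 (0.259) and CHGA and NPY (0.290), while CRH was farthest from its nearest, GAL (1.71). These are descriptions over 4 comparisons, and CRH was chosen for its rises in sh4 and shAMB. The distance is not scaled to the size of a change. The larger distances of CRH therefore follow at least in part from its choice and cannot be read as a trait of the gene.

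Effects were then compared between the lines. Against the EV line, 4 of the 9 tested genes had a lower effect in the sh4 line and none a higher one (CHGA, CHGB, VIP and SST), where 32.6% of all genes were called. CHGB stood at -0.18 (adjusted p = 0.00795), which turned to 0.03 and lost its call with limma on TPM (adjusted p = 0.534). VIP differed by -0.88 (SE 0.14, adjusted p = 0.000248) and CHGA by -0.77 (SE 0.16, adjusted p = 0.00179). For shAMB against EV, 7 of 9 passed, against 45.5% of all genes. SCG2 (2.00, SE 0.10), GAL (1.97, SE 0.24), CHGB, VIP and SCG3 were higher and SST and SCG5 lower. With library totals only or with TPM the split was 6 higher and 1 lower. The VIP (0.44, adjusted p = 0.0184) and SCG3 (0.25, adjusted p = 0.0429) differences and that of SCG5 (-0.30, adjusted p = 0.0338) were small and lost their calls under several single omissions. SCG3 also lost it with RLE scaling (0.20, adjusted p = 0.152), DESeq2 (0.20, adjusted p = 0.158), no low count filter (0.20, adjusted p = 0.142) only the lines compared (0.19, adjusted p = 0.0779) and the replicate block (0.25, adjusted p = 0.0517). SCG5 lost it with library totals only (-0.19, adjusted p = 0.128) and limma on TPM (-0.08, adjusted p = 0.507), and VIP with no low count filter (0.39, adjusted p = 0.0620). VIP lost it as well without EV doxycycline replicate 1 (0.40, adjusted p = 0.0501) or 2 (0.37, adjusted p = 0.0564). NPY did not pass for shAMB against EV (0.31, adjusted p = 0.0896). It passed with library totals only (0.43, adjusted p = 0.0208) and with limma on TPM (0.54, adjusted p = 0.000999). GAL for sh4 against EV (-0.40, adjusted p = 0.221) passed without sh4 doxycycline replicate 3 (-0.65, adjusted p = 0.0129).

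All 9 tested genes differed between the effects of the 2 hairpins, where 60.9% of all genes were called. The sh4 effect was lower for 7 of them and higher for SCG5 and SST. GAL differed by -2.36 (SE 0.24, adjusted p = 9.23e-07), SCG2 by -1.92 (SE 0.10, adjusted p = 6.82e-10) and VIP by -1.32 (SE 0.14, adjusted p = 1.27e-06). SST, lower with both hairpins, differed by 0.33 (SE 0.10, adjusted p = 0.0122), the drop being larger with shAMB. SCG3 differed by -0.28 (adjusted p = 0.0206), a call lost without sh4 doxycycline replicate 3, shAMB DMSO replicate 1 or shAMB doxycycline replicate 1 (-0.17, -0.24 and -0.23 in turn) and with RLE scaling or DESeq2 (both -0.21, adjusted p = 0.110 and 0.114).

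Levels before induction were compared as well. With DMSO, 1 of 9 differed between the sh4 and EV lines (1.12% of all genes) and 2 of 9 between the shAMB and EV lines (1.52%). SCG2 was lower in the sh4 line (48.7 ± 3.10 against 63.1 ± 3.21 CPM, n = 3), by -0.37 (edgeR adjusted p = 0.0160), a call lost without EV DMSO replicate 1 or 2 or sh4 DMSO replicate 1 (-0.33, -0.39 and -0.33). In the sh4 line VIP stood higher than in the EV line (10.7 ± 0.348 against 7.99 ± 0.511 CPM), by 0.42, without passing in edgeR (adjusted p = 0.0553). That difference passed with DESeq2 (0.39, adjusted p = 0.0233) and with library totals only (0.41, adjusted p = 0.0424). VIP was higher in the shAMB line (11.9 ± 0.262 against 7.99 ± 0.511 CPM), by 0.57 (adjusted p = 0.00510). NPY was higher there by 0.48 (adjusted p = 0.0231), and this call was lost without any of EV DMSO replicates 1 to 3 or shAMB DMSO replicates 2 and 3, at 0.41 to 0.50. Both comparisons share the EV libraries.

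In the xenografts 5 of the 10 genes changed, where 41.1% of all genes were called. CHGB, SCG2, VIP and GAL were higher in the group labelled knock-out and SST was lower, with a median of 0.22 over the 10 genes and 0.02 over all genes tested. With TPM 6 changed, 4 up and 2 down, and the share of all genes called with TPM is not given here. The values for SCG2, GAL and CHGB stood in the same direction as in the shAMB line and those for SST in the same direction as in both hairpin lines. Per the paper the tumours share a hairpin with a culture line, and by its name this may be shAMB. Likeness to the shAMB line may then be the same hairpin seen again. Fewer cells that make a peptide and less RNA per cell cannot be told apart in these bulk samples. The summed level of the 9 sympathetic neuroblast markers ran from 1826 to 2250 CPM in control tumours and from 1171 to 2004 in the others. The sum of 10 fibroblast markers was 74.6 to 116 against 108 to 161 CPM, of 10 endothelial markers 2.16 to 3.47 against 2.88 to 4.86, of 10 leukocyte markers 1.32 to 1.77 against 1.90 to 2.88 and of 8 Schwann cell markers 19.9 to 25.7 against 18.2 to 22.9. COL1A2 among the fibroblast markers, ESAM and TIE1 among the endothelial ones and CD14, LYZ, C1QA, ITGAM and TYROBP among the leukocyte ones had at most 3 counts in every control tumour. Over the culture groups, normalised apart, the fibroblast sum ran from 102 to 191 CPM and the endothelial sum from 2.08 to 4.49. The leukocyte sum ran there from 0.754 to 2.37 CPM and the Schwann cell sum from 19.4 to 32.2. The markers are human genes counted on hg38 and the hosts were mice, so these sums do not measure host cells. The part of other cells in the result was not tested.

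The makeup of the RNA of the chosen peptide precursors was read from summed levels. The sum of NPY, VIP, GAL, SST and CRH was 102 ± 7.26 CPM per kilobase in the sh4 line with DMSO and 60.0 ± 8.59 with doxycycline. In the shAMB line it was 97.1 ± 5.43 and 143 ± 9.67, in the EV line 105 ± 9.45 and 92.8 ± 2.29, and in the xenografts 103 ± 7.82 in controls and 92.7 ± 10.8 in the others. SST made up 50.3% to 56.3% of that sum, as group means, in all groups without an induced hairpin or a knock-out label. Its share was 33.5% ± 2.22 in the sh4 line with doxycycline, 11.1% ± 0.505 in the shAMB line with doxycycline and 25.7% ± 2.03 in the xenografts labelled knock-out. GAL was 71.8% ± 2.09 and 54.4% ± 9.85 of the sum in these last 2 groups, against 25.6% ± 1.22 and 22.5% ± 2.66 in their controls. CHGA made up 69.6% ± 1.80 of the granin sum in the shAMB line with doxycycline and 76.4% ± 2.09 with DMSO. These sums were made over the chosen genes and carry no test.

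**Figure D3:**
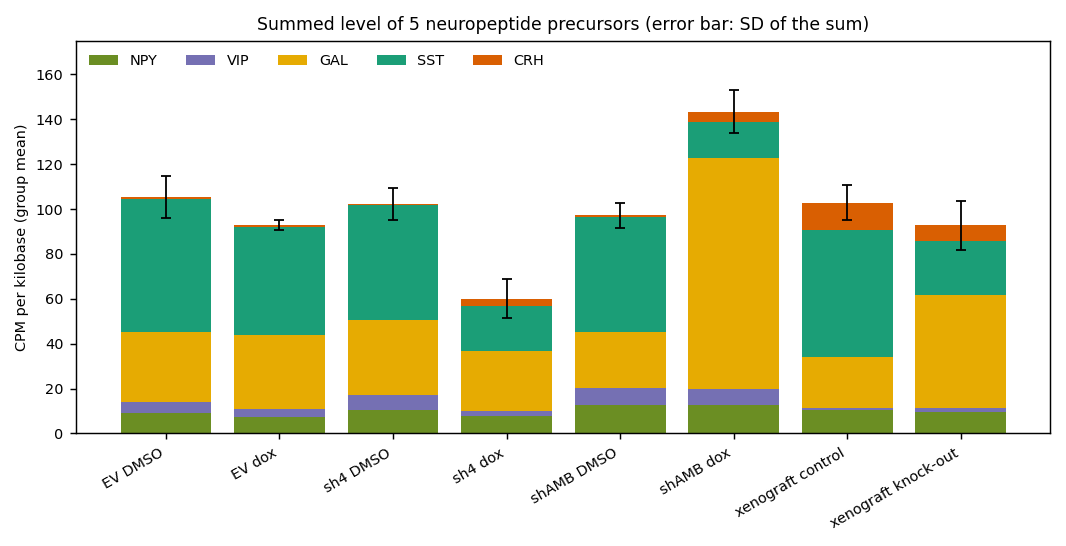
Stacked group means of the 5 peptide precursors in CPM per kilobase of gene length, with the SD of the sum over 3 culture or 4 xenograft libraries as the error bar. The stack is lowest in the sh4 line with doxycycline (60.0) and highest in the shAMB line with doxycycline (143), where GAL takes most of it.

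Other genes of the pathway were taken from 5 hand-written lists covering processing enzymes, receptors, further precursors, vesicle machinery and transcriptional regulators. In the EV line 0 genes of any list changed by edgeR (of 7, 6, 10, 24 and 21 tested), and DESeq2 also called 0. At an unadjusted p under 0.05 there were 1, 2, 1, 3 and 2 in the same order, with no share of all genes at that level given here. Medians are given beside those over all genes tested, which were -0.00462 for sh4, 0.10 for shAMB and 0.02 for the xenografts. The list counts are to be read against the share of all genes called, 40.9% for sh4, 66.0% for shAMB and 41.1% for the xenografts.

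Among processing enzymes 71.4% of the tested genes were called with sh4, 85.7% with shAMB and 37.5% in the xenografts, where 40.9%, 66.0% and 41.1% of all genes were. Of 7 tested genes 5 rose in the sh4 line (median 0.26), and 6 of 7 changed in the shAMB line (4 up, 2 down, median 0.19, or 2 up and 2 down with RLE scaling) and 3 of 8 in the xenografts (2 up, 1 down, median 0.24). The sh4 count held poorly, at 0 without sh4 doxycycline replicate 1 and 1 without DMSO replicate 1 or doxycycline replicate 2. QPCT, the enzyme that forms N-terminal pyroglutamate, rose by 1.24 with shAMB (adjusted p = 4.36e-08) and by 1.24 in the xenografts (adjusted p = 0.000257). PCSK5, another convertase, fell with shAMB (-1.19, adjusted p = 4.53e-06) and in the xenografts (-0.72, adjusted p = 0.0111, but -0.09 with TPM). In the sh4 line PCSK5 stood at 0.37 (adjusted p = 0.0475), a call lost under each single omission of a sh4 library (0.31 to 0.41). PAM, which amidates the ends of peptides, rose by 0.26 with sh4 (adjusted p = 0.0110), a call lost without sh4 DMSO replicate 1 (0.19) or doxycycline replicate 1 (0.20). PCSK1 and PCSK2, convertases of the regulated pathway, were hardly detected (named after their values were seen). PCSK1 had 0 to 1 counts and PCSK2 0 to 2 counts in any culture library, and at most 6 and 4 in any tumour.

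Among receptors and clearance genes 16.7% were called with sh4 and 50.0% with shAMB, both below the 40.9% and 66.0% of all genes, and 71.4% in the xenografts (41.1% of all genes). In counts, 1 of 6 fell in the sh4 line (median -0.20), 3 of 6 rose in the shAMB line (median 0.55) and 5 of 7 changed in the xenografts (3 up, 2 down, median 1.27, or 3 up and 0 down with TPM). The sh4 count was 2 without doxycycline replicate 3. SSTR2, a somatostatin receptor, rose from 3.91 ± 0.443 to 23.8 ± 0.331 CPM with shAMB (2.61, adjusted p = 2.03e-11) and was 53.0 ± 19.5 against 8.39 ± 0.780 CPM in the xenografts (2.66, adjusted p = 3.53e-05). With sh4 it stood at -0.26 (adjusted p = 0.0703). SSTR3, a second somatostatin receptor, rose by 1.04 with shAMB (adjusted p = 0.00256) and by 1.60 in the xenografts (adjusted p = 0.000105). SST itself was lower in both comparisons. ADCYAP1R1, the receptor for the peptide PACAP, fell by 0.55 with sh4 (adjusted p = 1.27e-08).

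Further precursors changed in both directions, 70.0% of them with sh4 (40.9% of all genes), 70.0% with shAMB (66.0% of all genes, a like share) and 50.0% in the xenografts (41.1% of all genes). The counts were 7 of 10 with sh4 (3 up, 4 down, median 0.04), 7 of 10 with shAMB (3 up, 4 down, median -0.11) and 5 of 10 in the xenografts (3 up, 2 down, median 0.43, or 3 up and 1 down with library totals only). VGF, a granin-like precursor, fell by 1.32 with sh4 (adjusted p = 0.000342) and rose by 3.29 with shAMB (adjusted p = 3.79e-09) and by 1.98 in the xenografts (adjusted p = 6.26e-05). ADCYAP1, which encodes PACAP, rose from 1.04 ± 0.187 to 5.99 ± 0.325 CPM with shAMB (2.51, adjusted p = 6.13e-09) and by 2.15 in the xenografts (adjusted p = 0.000452). CARTPT, the precursor of the CART peptides, rose from 13.7 ± 1.14 to 70.5 ± 2.06 CPM with sh4 (2.36, adjusted p = 5.40e-12), whereas with shAMB it fell by 1.42 (adjusted p = 5.54e-10).

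Of the dense-core vesicle machinery 54.2% was called with sh4, 87.5% with shAMB and 48.0% in the xenografts, beside 40.9%, 66.0% and 41.1% of all genes. These were 13 of 24 tested genes changed with sh4 (6 up, 7 down, median -0.20, or 9 up and 3 down with TPM), 21 of 24 with shAMB (16 up, 5 down, median 0.51) and 12 of 25 in the xenografts (11 up, 1 down, median 0.29). With TPM 3 vesicle genes were called in the xenografts, with no TPM share of all genes given here. CADPS, which primes vesicles for release, fell by 1.26 with sh4 (adjusted p = 5.04e-12). It fell with shAMB as well (-0.66, adjusted p = 1.75e-09), while in the xenografts it stood higher (0.83, adjusted p = 0.000247). RAB27B, a GTPase of vesicle docking, fell by 1.92 with shAMB (adjusted p = 2.18e-10). STX1A, a SNARE protein of the plasma membrane, rose by 1.35 with shAMB (adjusted p = 0.000713), and SNAP25, its partner, by 0.88 in the xenografts (adjusted p = 0.000540). SYTL4, an effector of RAB27, rose by 0.70 with sh4 (adjusted p = 3.06e-05) and by 0.91 in the xenografts (adjusted p = 0.00291).

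Of the regulators 57.1% were called with sh4, 76.2% with shAMB and 42.9% in the xenografts, the last near the share of all genes (40.9%, 66.0% and 41.1% in turn). These were 12 of 21 changed with sh4 (9 up, 3 down, median 0.11, or 11 up and 1 down with TPM), 16 of 21 with shAMB (11 up, 5 down, median 0.25, or 14 up and 3 down with TPM) and 9 of 21 in the xenografts (7 up, 2 down, median 0.11, but 5 without replicate 2 of the group labelled knock-out). PRKACA, a catalytic subunit of the cyclic AMP-dependent kinase, fell from 70.5 ± 4.22 to 30.03 ± 4.81 CPM with sh4 (-1.23, adjusted p = 1.67e-07). REST, the repressor of neuronal genes, rose by 1.14 with sh4 (adjusted p = 2.44e-08) and by 0.49 with shAMB (adjusted p = 8.81e-05). NEUROD1, a neuroendocrine transcription factor, rose by 1.17 with shAMB (adjusted p = 1.93e-07) and by 1.59 in the xenografts (adjusted p = 7.12e-05). INSM1, another such factor, rose by 1.02 in the xenografts (adjusted p = 0.000717), and PHOX2A, of the sympathetic lineage, by 1.56 with shAMB (adjusted p = 8.30e-06).

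**Figure D4:**
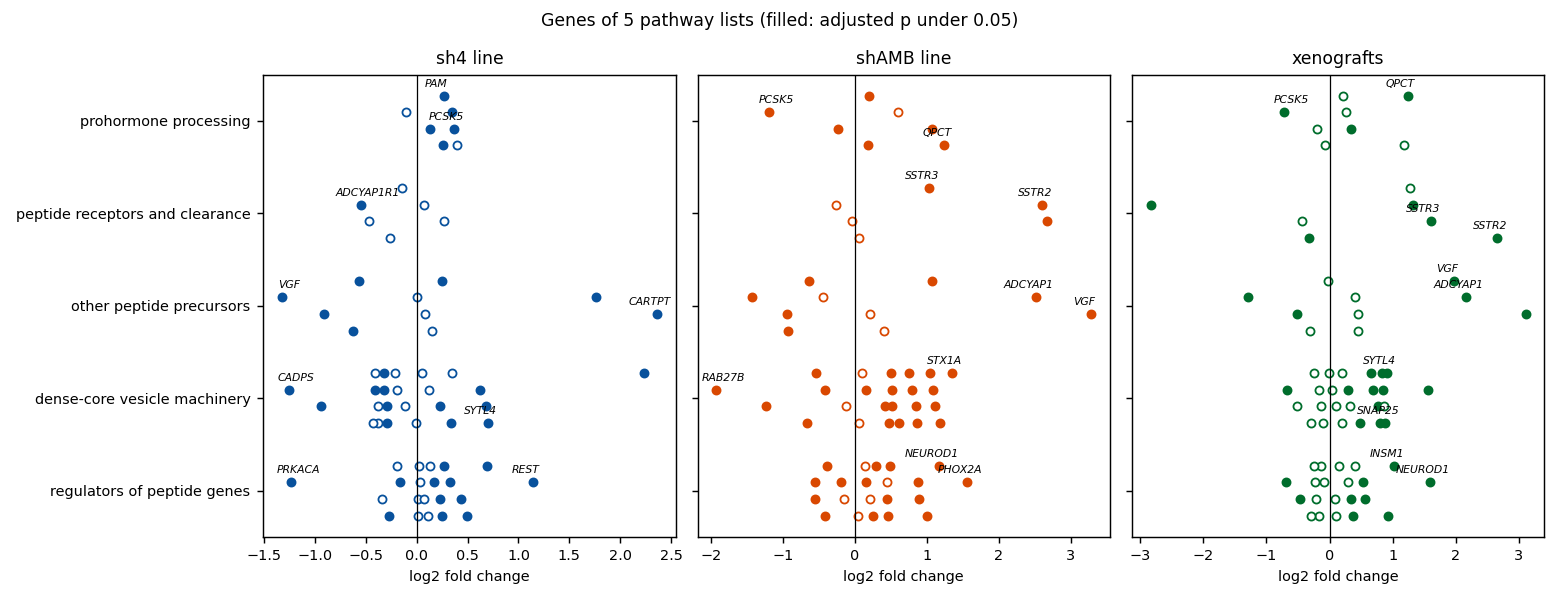
Log2 fold changes of the tested genes of 5 pathway lists in the sh4, shAMB and xenograft comparisons, with each x axis on its own scale and points stacked in height only to separate them. Filled points passed an adjusted p of 0.05, and the names are the genes given in the text by the rule of size and level. Most filled vesicle genes lie to the right of 0 in the shAMB line (16 of 21) and in the xenografts (11 of 12).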

How the data were processed

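RNA sequencing data of 26 KELLY libraries in 8 groups were used, with groups taken from the sample labels. The replicates are not described as separate cultures or, in the sample titles, as separate tumours. The p-values therefore measure only the spread between these libraries, which may be technical. Per the submitters' processing notes, reads were handled with STAR, SAMtools and RSEM on hg38, with versions and strand use in counting for these libraries not given in the sources used here (the methods of the study give versions for mouse ganglia). The authors deposited RSEM expected counts (estimated counts that need not be whole) per gene, with a gene length, and TPM (transcript abundance that the authors scaled for length and library). Small RNA genes took 70.9% to 84.6% of the TPM of xenografts but 7.01% to 18.2% of their counts, so TPM served only as an alternative.

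Expected counts were rounded and tested with edgeR 4.0.16 in R 4.3.3 (filterByExpr, TMM, two-sided quasi-likelihood F test, p-values adjusted by Benjamini-Hochberg over the 14905 genes tested in culture and the 15960 in xenografts). The 18 culture libraries shared 1 fit and the 8 xenografts another. Alternatives were RLE scaling, library totals only, DESeq2 1.42.0, no low count filter, limma 3.58.1 on log2(TPM + 1), omission of small RNA genes, only the lines compared, a replicate block, and omission of each library. Shares of all genes called are given for the main edgeR fit only, so counts under the alternatives have none beside them. Scripts were tested on simulated data. Chi-square per degree of freedom between replicates ran from 1.82 to 263, above sampling noise, and each library counted once.

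The 10 genes and the pathway lists were chosen with earlier results of these data known. Named list genes were up to 2 per list and comparison with the largest absolute change among those changed, with a mean CPM of at least 1 and groups that did not overlap. The 3 genes nearest to CRH were also named. One gene of the fixed lists is not reported here and was left out of the counts and sums.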

Additional observations from a re-analysis of the deposited data

Results flagged for a closer look

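In the xenografts labelled knock-out, SCG3 was 132 CPM in replicate 1, with the other 3 libraries between 177 and 183. This gap exceeded Dixon's 95% limit for 4 samples. The 10 genes were examined in both xenograft groups, 20 in all, and chance flags about 1 in 20.

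Effects of doxycycline differed between lines by edgeR's interaction test, which also gave the adjusted p-values in the report. For sh4 against EV the differences were -0.77 for CHGA, -0.18 for CHGB, -0.88 for VIP and -1.07 for SST. For shAMB against EV they were 0.56 for CHGB, 2.00 for SCG2, 0.25 for SCG3, -0.30 for SCG5, 0.44 for VIP, 1.97 for GAL and -1.40 for SST. For sh4 against shAMB they were -0.68 for CHGA, -0.74 for CHGB, -1.92 for SCG2, -0.28 for SCG3, 0.33 for SCG5, -0.49 for NPY, -1.32 for VIP, -2.36 for GAL and 0.33 for SST.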

How the results depend on the processing

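The falls of SST in the sh4, shAMB and xenograft comparisons, of VIP and CHGA with sh4, and the rises of SCG2, GAL and CHGB with shAMB and in the xenografts kept their direction and their side of the threshold under each alternative run. The number of the 9 genes changed in the EV line (0) was 1 with library totals only, 2 with DESeq2 and 1 with limma on TPM. The count of 1 for sh4 against EV with DMSO was 2 with library totals only or DESeq2 and 0 with only the lines compared, and the count of 2 for shAMB against EV with DMSO was 1 without the low count filter. With single libraries left out, the counts ran from 0 to 1 in the EV line, 4 to 6 for shAMB against EV effects, 0 to 1 for sh4 against EV with DMSO and 1 to 2 for shAMB against EV with DMSO. Some small differences turned sign. With limma on TPM the sh4 values were 0.0698 for CHGB, 0.0232 for SCG2, 0.0517 for SCG3 and 0.0567 for RUNX1T1, the sh4 against EV values 0.0345 for CHGB, 0.185 for SCG3 and 0.0427 for NPY, VIP in shAMB was 0.0742, CHGA for shAMB against EV 0.13 and CRH for sh4 against shAMB -0.17. With library totals only, SCG3 for sh4 against EV was 0.0340, VIP in shAMB 0.0006, CHGA for shAMB against EV 0.0252 and CRH for sh4 against shAMB -0.0081. NPY in shAMB was -0.0503 with RLE scaling, -0.0478 with DESeq2, -0.0204 with no filter and -0.0546 with only the lines compared, RUNX1T1 in shAMB was -0.0187, -0.0183 and -0.0242 under RLE scaling, DESeq2 and only the lines compared in turn, and SCG5 in sh4 was -0.0019 without the filter. With single libraries left out, values ran from -0.0304 to 0.0195 for SCG5 and -0.0062 to 0.22 for GAL in the EV line, -0.0529 to 0.0889 for SCG5 in sh4, -0.0790 to 0.0901 for NPY in shAMB, -0.0861 to 0.0443 for SCG3 and -0.0459 to 0.0941 for SCG5 for sh4 against EV, -0.0455 to 0.185 for CRH for sh4 against shAMB, and -0.0294 to 0.0117 for CHGB and -0.0599 to 0.228 for GAL for sh4 against EV with DMSO. Replicate numbers are shared between groups, and deviations of same-numbered libraries correlated at -0.603 to 0.374. Each deviation was taken from the mean of a few libraries, so these values do not settle whether a number marks a shared batch. A replicate block left 0 genes changed in the EV line and took CRH in the xenografts to -1.25 (adjusted p = 0.0355) and SCG3 for shAMB against EV to 0.25 (adjusted p = 0.0517). It also gave 3 processing and 2 receptor genes in sh4, and limma on TPM took CRH to -0.92 (adjusted p = 0.0473). On TPM, 1 processing, 3 receptor, 3 vesicle and 3 regulator genes were called in the xenografts, with no share of all genes given here. In the sh4 line the processing count of 5 was 2 with RLE scaling, 3 with DESeq2 and 0 with only the lines compared. The cause of these shifts was not tested. Depth limits CRH in culture most, with 31 to 54 counts in uninduced and EV libraries.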
